A study of Rattus norvegicus with 24 samples.

Results

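The choroid plexus genes described here are 10 of the 23950 genes measured in the nucleus accumbens (NAc) of rat pups. They were taken by name: Ttr, Kl, Folr1, Clic6, Sostdc1, Kcne2, Kcnj13, Otx2, Aqp1 and Trpv4. Each name was found once in all 24 libraries. The study asked how oxycodone given to Sprague Dawley dams bears on their offspring (F1) and on the offspring of those offspring (F2). NAc RNA was sequenced at postnatal day 14, and the 24 libraries fall into 6 groups of 4. In the IUO (in utero oxycodone) groups the F0 dams received 10 mg/kg/day for 5 days, then 0.5 mg/kg/day more on each of 10 days up to 15 mg/kg/day, which went on through mating and gestation until weaning. In the PNO (postnatal oxycodone) groups the F0 dams received 15 mg/kg/day from birth of the litter until weaning. SAL dams received saline. F1 animals were not dosed themselves, and F1 females were bred with naive males to give the F2 groups. The replicates of a group came from separate litters. Which pups were male or female is unknown here.

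The choroid plexus is a folded epithelium in the brain ventricles that secretes cerebrospinal fluid. Its cells carry ion channels, water channels and transporters on the surface that faces the ventricle, and they release carrier and signalling proteins into the fluid. The NAc lies close to the lateral ventricle, and the tissue was taken with a brain matrix. Levels are given as FPKM (fragments per kilobase of transcript and per unit of mapped fragments), which is scaled by transcript length. The summed FPKM of a library ran from 535866 to 766781. Read depth is unknown, and a gene without a value above 0 is described as listed at 0.

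Single libraries stood apart from the rest of their group. Ttr encodes transthyretin, the thyroid hormone and retinol carrier that choroid plexus epithelium secretes. In F1 SAL its FPKM was 5121, 3.19, 1.86 and 1.75 in replicates 1 to 4. In F1 PNO it was 245, 8.85, 3742 and 15.6. In F1 IUO it was 6.12, 22.8, 8011 and 973. Each of these 3 F1 groups had 1 library above 3000, and the lowest libraries of the 3 groups were all below 10. In F2 SAL the FPKM of Ttr was 1.87, 8.01, 77.3 and 7.36. In F2 PNO it was 10.6, 8.52, 21.9 and 6696. In F2 IUO it was 12103, 6.90, 4.77 and 3.15. F2 PNO and F2 IUO thus each had 1 high library, while no F2 SAL library passed 77.3. Ttr was the gene of rank 8 by FPKM in F2 IUO replicate 1, where it made up 1.92% of the summed FPKM. It was of rank 12324 in F1 SAL replicate 4.

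Ordered by group mean, Ttr was 3029 ± 6049 FPKM in F2 IUO (SD, n = 4), 2253 ± 3865 in F1 IUO, 1684 ± 3341 in F2 PNO, 1282 ± 2559 in F1 SAL, 1003 ± 1829 in F1 PNO and 23.6 ± 35.9 in F2 SAL. The SD exceeded the mean in each of the 6 groups. Ordered by group median, F1 IUO came first at 498 and F1 SAL last at 2.53, so that the order depended on the summary used. The ranges of all 6 groups overlapped, and no neighbours in either order differed beyond their spread. In bulk tissue, fewer cells of a type and less RNA per cell cannot be told apart.

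**Figure D1:**
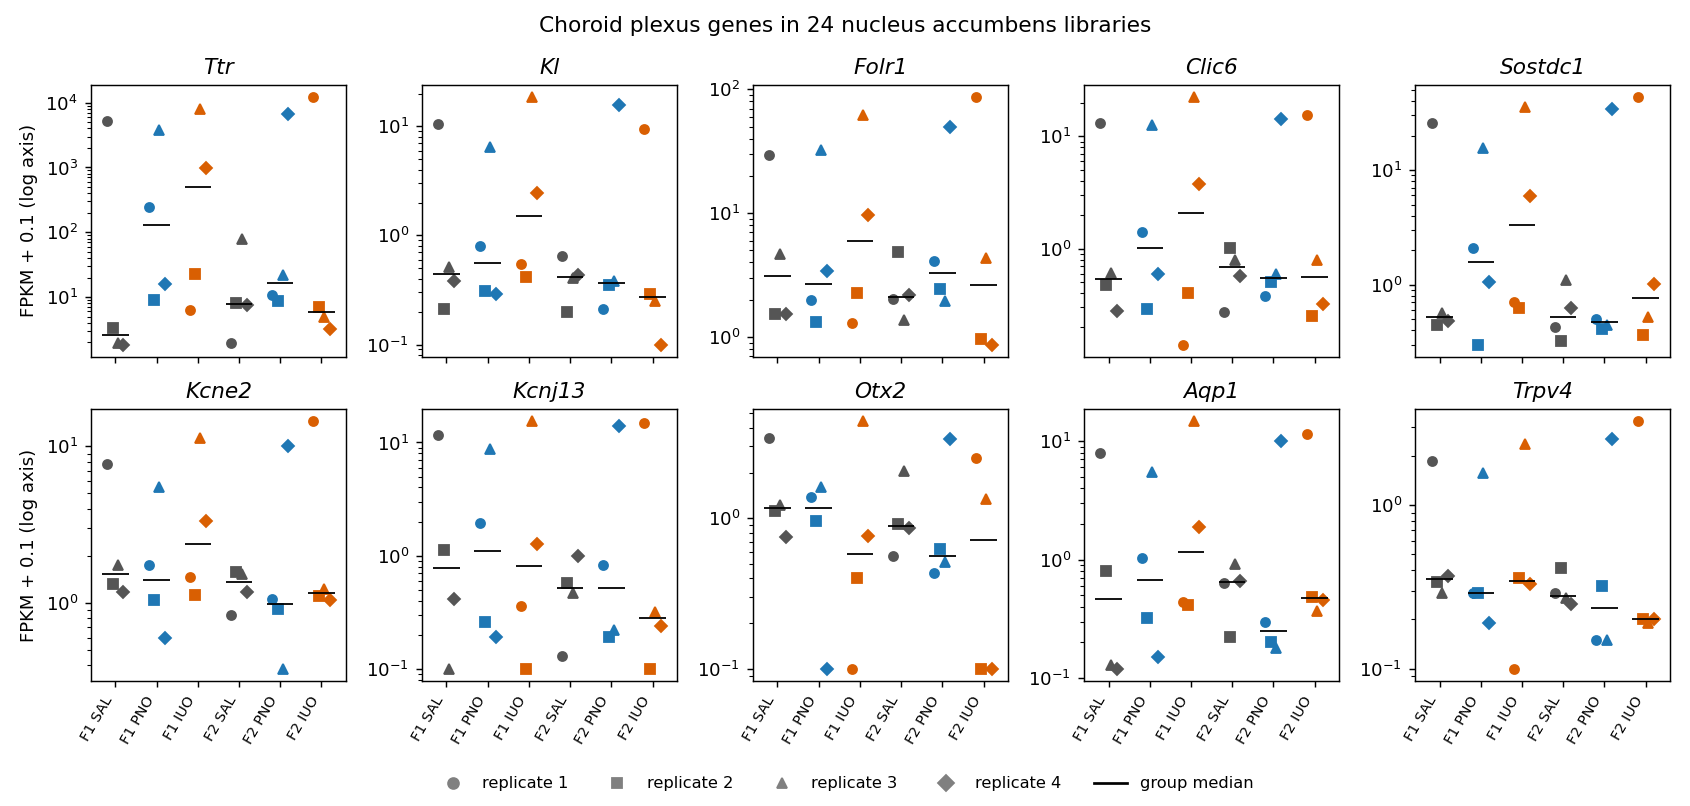
FPKM + 0.1 on a log axis for the 10 choroid plexus genes, with 1 point per library (shape, replicate number; grey, SAL; blue, PNO; orange, IUO) and a line at the median of the 4 libraries of each group. For Ttr, 5 groups each hold a library above 3000 FPKM, and the 4 F2 SAL libraries lie between 1.87 and 77.3 FPKM.

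The water and ion channel genes followed the same libraries. Aqp1 encodes the water channel of the apical choroid plexus membrane. Its FPKM was 7.91, 0.70, 0.03 and 0.02 in F1 SAL, 0.93, 0.22, 5.40 and 0.05 in F1 PNO, and 0.34, 0.31, 14.6 and 1.79 in F1 IUO. It was 0.53, 0.12, 0.82 and 0.56 in F2 SAL, 0.20, 0.10, 0.08 and 9.91 in F2 PNO, and 11.4, 0.38, 0.27 and 0.36 in F2 IUO. The 6 libraries highest in Aqp1 were the 6 highest in Ttr, and the groups overlapped. Kcne2, a subunit of potassium channels, ran from 0.28 to 14.3 with a median of 1.17. Kcnj13, the inward rectifier Kir7.1, ran from 0 to 15.2 with a median of 0.34, and was listed at 0 in 3 libraries. Trpv4, a cation channel that responds to osmolarity and heat, ran from 0 to 3.14 with a median of 0.19. Clic6, of the chloride intracellular channel family, ran from 0.04 to 22.2 with a median of 0.50.

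The receptor and secreted factor genes did likewise. Folr1, the folate receptor that carries folate into cerebrospinal fluid, had an FPKM of 29.2, 1.42, 4.61 and 1.43 in F1 SAL, 1.89, 1.21, 32.2 and 3.31 in F1 PNO, and 1.19, 2.17, 62.4 and 9.53 in F1 IUO. It was 1.91, 4.76, 1.27 and 2.09 in F2 SAL, 4.03, 2.34, 1.86 and 49.4 in F2 PNO, and 86.2, 0.86, 4.25 and 0.77 in F2 IUO. Folr1 was above 0.7 FPKM in every library, and its group means ran from 2.51 ± 1.54 in F2 SAL to 23.02 ± 42.15 in F2 IUO (SD, n = 4). Kl encodes Klotho, a membrane protein that is shed into the fluid. Its FPKM was 10.4, 0.11, 0.41 and 0.28 in F1 SAL, 0.70, 0.21, 6.38 and 0.19 in F1 PNO, and 0.45, 0.32, 18.4 and 2.35 in F1 IUO. It was 0.55, 0.10, 0.31 and 0.33 in F2 SAL, 0.11, 0.25, 0.28 and 15.6 in F2 PNO, and 9.41, 0.19, 0.15 and 0 in F2 IUO. The groups overlapped for both genes. Sostdc1, a secreted antagonist of BMP and Wnt signalling, ran from 0.20 to 43.1 with a median of 0.52. Otx2 is a homeobox factor needed for choroid plexus development. Its FPKM was 3.32, 1.01, 1.12 and 0.65 in F1 SAL, 1.28, 0.86, 1.51 and 0 in F1 PNO, and 0, 0.30, 4.30 and 0.66 in F1 IUO. It was 0.46, 0.82, 1.96 and 0.76 in F2 SAL, 0.33, 0.52, 0.41 and 3.25 in F2 PNO, and 2.41, 0, 1.24 and 0 in F2 IUO. F2 SAL replicate 3 thus held more Otx2 than F1 PNO replicate 3, one of the libraries high in Ttr. Of the 6 libraries highest in Ttr, 6 were also the highest in Kl, Folr1, Clic6, Sostdc1, Kcne2 and Aqp1, and 5 in Kcnj13, Otx2 and Trpv4.

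The order of the groups differed among the genes. By group mean, F2 IUO came first for Ttr, Folr1, Sostdc1, Kcne2 and Trpv4, F1 IUO for Kl, Clic6, Kcnj13 and Aqp1, and F1 SAL for Otx2. F2 SAL came last by mean for 9 genes, and F1 PNO and F2 IUO were level in last place for Otx2. By group median, F1 IUO came first for 7 genes, F1 PNO for Kcnj13 and Otx2, and F1 SAL for Trpv4.

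The proportions among the genes were not fixed in these 6 libraries. Per 1000 FPKM of Ttr, Folr1 was 5.70 in F1 SAL replicate 1, 7.12 in F2 IUO replicate 1, 7.37 in F2 PNO replicate 4, 7.78 in F1 IUO replicate 3, 8.62 in F1 PNO replicate 3 and 9.79 in F1 IUO replicate 4. On that scale Kl was 0.777 in F2 IUO replicate 1 and between 1.70 and 2.42 in the other 5. Otx2 was 0.199 in F2 IUO replicate 1 and between 0.403 and 0.678 in the other 5. F2 IUO replicate 1, with the most Ttr of the 24 libraries, was the lowest of these 6 on that scale also for Clic6, Sostdc1, Kcne2 and Aqp1, and was not for Folr1, Kcnj13 and Trpv4.

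The spread of the genes within a group was wider than that of the median gene. The within-group range, the difference between the highest and the lowest of 4 libraries on log2(FPKM + 0.1), had a median over the 10 genes of 5.60 in F1 SAL, against 0.58 over the 18218 genes tested in any comparison. It was 4.91 against 0.56 in F1 PNO and 5.53 against 0.72 in F1 IUO. In F2 it was 5.51 against 0.89 for PNO, 6.26 against 0.84 for IUO and 1.85 against 0.60 for SAL. The range of Ttr was the widest of the 10 in every group, from 5.30 in F2 SAL to 11.86 in F2 IUO. F2 SAL was the group with the narrowest spread, and all 10 genes still lay above its all-gene median. The width depended on the pseudocount: on log2(FPKM + 1) the median over the 10 genes was 0.71 against 0.41 in F2 SAL, with 9 genes above, and from 2.89 (F1 PNO) to 3.95 (F1 IUO) against 0.58 or less in the other groups.

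Group comparisons were made with limma on log2(FPKM + 0.1) across all genes that reached 0.1 FPKM in at least 4 libraries, so that fold changes of low genes are understated. A gene was called by an adjusted p (Benjamini-Hochberg over all genes tested) under 0.05, or by the rule of the study's tables, which asks for a ratio of 2 or more between the mean FPKM of the groups beside an unadjusted p under 0.05. The p is limma's here, and the study's methods give 1.5-fold for the hits it took to PCR. Aqp1 was among those hits, and the study reports a significant difference among its F2 groups by PCR. Those PCR values were not compared here. All 10 genes passed the filter in each comparison.

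For IUO against SAL in F1, 8 of the 10 genes had a higher and 2 a lower fitted value, with a median log2 fold change of 0.57 against 0.01 over all genes. Without F1 IUO replicate 3 that median was -0.38. The fold change of Ttr was 3.54 ± 2.91 (SE) on the log2 scale, with an adjusted p of 0.999 by limma. It was 1.72 without F1 IUO replicate 3. By the rule of the study 0 of 10 genes were called, against 1.61% of 17380 genes, and by adjusted p 0 of 10 against 0%. At an unadjusted p under 0.05 limma found 0 of the 10 and 679 of all genes. Without F1 SAL replicate 1, Ttr passed the rule of the study at a log2 fold change of 6.32 ± 2.16 (adjusted p by limma 0.998), beside 1.39% of all genes, and without F1 IUO replicate 3, Otx2 passed it at -2.13 ± 0.75 (adjusted p by limma 0.991), beside 2.28%. The mean FPKM of Otx2 was then low, at 0.32 in F1 IUO and 1.525 in F1 SAL.

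For PNO against SAL in F1, 6 genes had a higher and 4 a lower fitted value, with a median log2 fold change of 0.10 against -0.05 over all genes. That median was -0.93 without F1 PNO replicate 3, was below 0 also without F1 SAL replicate 2, 3 or 4, and was -0.02 with a pseudocount of 1. The fitted difference in Ttr was 2.76 ± 2.75 (adjusted p by limma 0.690), while its mean FPKM was 1003 in PNO and 1282 in SAL. Without F1 PNO replicate 3 that difference was 1.05. The rule of the study called 0 of 10 genes, against 1.86% of 17494, and the adjusted p 0 of 10 against 0%, while 0 of the 10 and 2438 of all genes had an unadjusted p under 0.05. Without F1 SAL replicate 1, Ttr passed the rule of the study at 5.54 ± 1.84 (adjusted p by limma 0.204), beside 2.83% of all genes. For IUO against PNO in F1, the difference in Ttr was 0.78 ± 2.48 (adjusted p by limma 0.910) and in Aqp1 1.05 ± 1.34 (adjusted p by limma 0.744). Without F1 IUO replicate 3 these were -1.04 and -0.05, and that of Ttr was below 0 also without F1 IUO replicate 4, F1 PNO replicate 2 or F1 PNO replicate 4. The rule of the study called 0 of 10, against 2.95% of 17306 genes, and the adjusted p 0 of 10, against 0.133%, with 0 of the 10 and 2857 of all genes at an unadjusted p under 0.05.

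In F2, where SAL held none of the high libraries, the ratio of group means was at least 2 for 9 of the 10 genes in both comparisons with SAL. It was for 0 of 10 in F2 IUO against F2 PNO. In F1 it was for 1 (IUO against SAL), 0 (PNO against SAL) and 4 (IUO against PNO). The share of all genes with such a ratio is not given here. Without F2 IUO replicate 1 and F2 PNO replicate 4, the mean FPKM of Ttr was 4.94 in F2 IUO and 13.7 in F2 PNO. For IUO against SAL the mean FPKM of Ttr was 3029 against 23.6, and its log2 fold change 1.80 ± 2.41 (adjusted p by limma 0.825). The median over the 10 genes was 0.76 against -0.08 over all genes, and -0.60 without F2 IUO replicate 1. The rule of the study called 0 of 10, against 2.18% of 17097 genes, and the adjusted p 0 of 10 against 0%, with 0 of the 10 and 1452 of all genes at an unadjusted p under 0.05. The fold change of Ttr without that library was -1.03. For PNO against SAL the fold change of Ttr was 2.63 ± 2.04 (adjusted p by limma 0.646), and 0.37 without F2 PNO replicate 4. The median over the 10 genes was 0.94 against -0.08 over all genes, and -0.38 without F2 PNO replicate 4. The rule of the study called 0 of 10, against 2.15% of 17367 genes, and the adjusted p 0 of 10 against 0.00576%, with 0 of the 10 and 1876 of all genes at an unadjusted p under 0.05. Without F2 PNO replicate 4, Aqp1 passed the rule of the study at -1.28 ± 0.54 (adjusted p by limma 0.299), beside 3.01% of all genes and with the opposite sign to the 0.09 ± 1.20 with all libraries. The mean FPKM of Aqp1 was then 0.13 in F2 PNO and 0.51 in F2 SAL, low beside the pseudocount of 0.1. For IUO against PNO in F2, the fitted difference in Ttr was -0.83 ± 2.92, while its mean FPKM was 3029 in IUO and 1684 in PNO. The rule of the study called 0 of 10, against 1.80% of 17090 genes, with 0 of 10 against 0% by adjusted p and 0 of the 10 and 1208 of all genes at an unadjusted p under 0.05. Without F2 PNO replicate 4 the difference in Ttr was 1.43, and it was above 0 also without F2 IUO replicate 3 or 4.

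The difference between generations was tested as an interaction over 16 libraries. The adjusted p was under 0.05 for 0 of the 10 genes in each of 3 tests, against 0% of all genes, and the unadjusted p for 0 of the 10 and for 949 (IUO against SAL), 756 (PNO against SAL) and 1060 (IUO against PNO) of all genes. For IUO against SAL the interaction for Ttr was -1.74 ± 4.16. These standard errors leave wide intervals, and a p above the threshold does not show that the groups were alike.

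**Figure D2:**
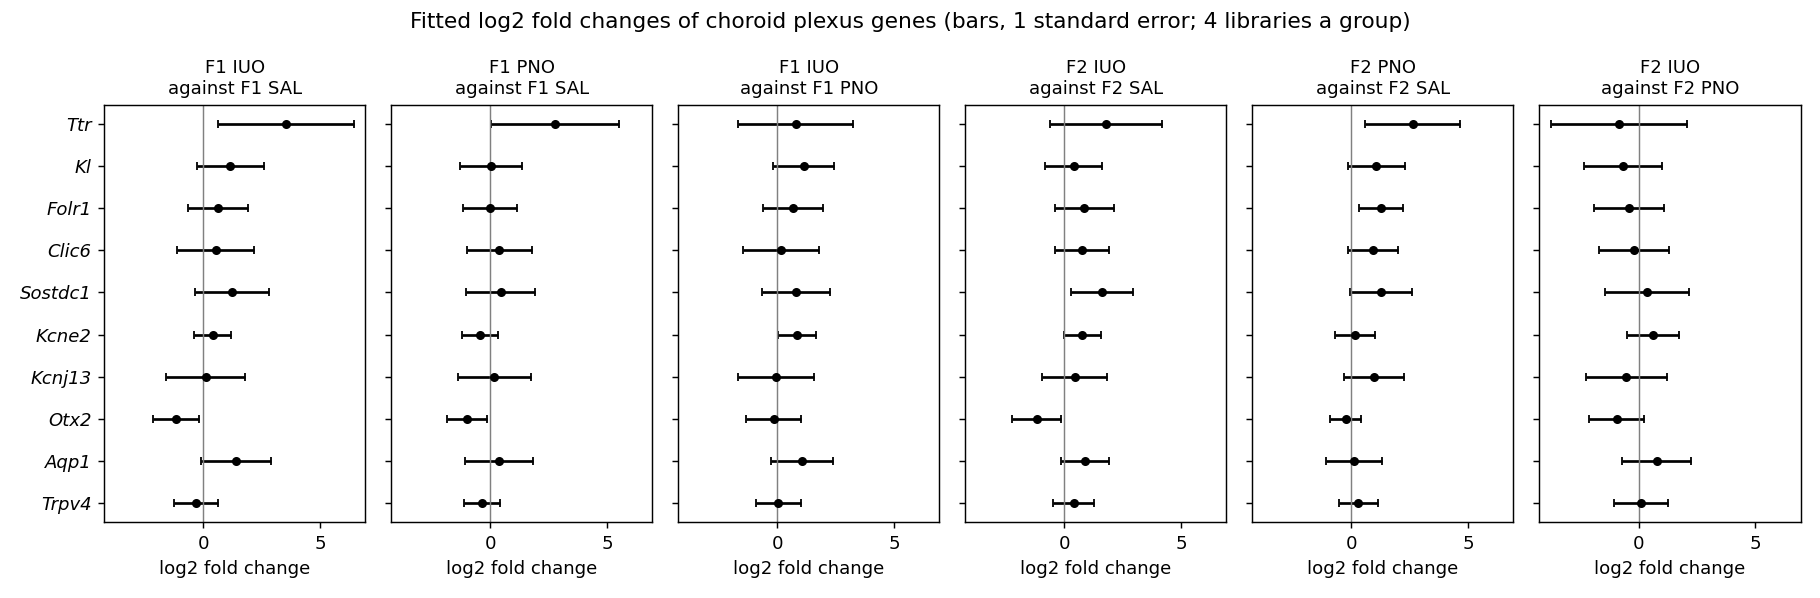
Log2 fold changes of the 10 choroid plexus genes in the 6 comparisons within a generation, on log2(FPKM + 0.1), first group minus second group, with bars of 1 standard error and 4 libraries a group. The bar of Ttr is the longest in each of the 6 panels, with a standard error of 2.91 for F1 IUO against F1 SAL.

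A wider list of choroid plexus genes held 38 names, of which 36 were found by name. Its summed FPKM ran from 214 in F2 IUO replicate 2 to 835 in F1 IUO replicate 3, with Igfbp2 as its most abundant gene. It was 632 in F1 SAL replicate 1, 657 in F1 PNO replicate 3, 662 in F2 PNO replicate 4 and 781 in F2 IUO replicate 1, and 397 or less in the other libraries. Among transporters, Slc4a5, a sodium bicarbonate cotransporter, ran from 0.05 to 12.8 FPKM. Among junction genes, Cldn2, a pore-forming claudin, ran from 0 to 7.98. Msx1, a homeobox factor, ran from 0 to 23.6. Htr2c, a serotonin receptor also made by neurons, did not follow these libraries. It ran from 19.3 to 39.9 and was highest in F1 SAL replicate 3. By the rule of the study, 0 genes of the wider list were called in 4 of the 6 comparisons. Rdh5 was lower in F2 IUO than in F2 SAL (-1.44 ± 0.59, 1 of 31 tested, adjusted p by limma 0.567), against 2.18% of all genes, and was called in 2 of the 8 fits that left out 1 library. Its mean FPKM was low, at 0.11 in F2 IUO and 0.39 in F2 SAL. Msx1 was higher in F2 PNO than in F2 SAL (1.65 ± 0.53, 1 of 31 tested, adjusted p by limma 0.382), against 2.15% of all genes. F2 PNO replicate 4 held 11.37 FPKM of Msx1 and the other 3 libraries of its group 1.80 to 3.02, and the fitted difference was 1.11 without it, still past the rule.

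The levels of the 10 genes were compared over 24 libraries as a description. Because the libraries fell into separate clusters, a pooled coefficient mostly separates those clusters. For the 45 pairs of genes it is therefore given only within the 18 libraries below 500 FPKM of Ttr, a limit chosen after the values were seen. In these, Pearson's r ran from -0.43 (Folr1 and Aqp1) to 0.61 (Clic6 and Otx2) with a median of 0.20. Levels were low in these 18 libraries, with Aqp1 at most 0.93 FPKM and Trpv4 at most 0.31. The range was also cut by the level of Ttr. Both limit what these coefficients can show. No coefficient is given for the other 6 libraries, since F1 IUO replicate 4, with 973 FPKM of Ttr, lay apart from the other 5, which held 3742 or more.

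Likeness to the mean log2 level of the 10 genes was ranked by r over 24 libraries, among 15391 genes with at least 1 FPKM in at least 2 libraries, and this ranking follows the split between the clusters. The first gene was Mfrp, a frizzled-related membrane protein, with r = 0.98 and rho = 0.82 over 24 libraries, and r = 0.82 in the 18. Mfrp ran from 0 to 73.3 FPKM. Cldn2 (r = 0.98), Slco1a2 (0.98), Cltrn (0.98) and Slc4a5 (0.97) came next. The others of the first 15 were Mmp2, F5, Enpp2, Slc4a2, Col8a2, Wfikkn2, Cldn1, Slc5a5, Mdk and AABR07049499.1, with r from 0.93 to 0.96. Of the 15, 8 were on the wider list by name. Slco1a2 was not counted, though it is described as organic anion transporter family member 1A5. The wider list held the name Slco1a5, which was not found. Wfikkn2, a secreted protease inhibitor, had the highest r of the 15 in the 18 libraries, 0.88. There were 44 genes outside the 10 whose 6 highest libraries were the 6 highest in Ttr.

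Lists for other cells and regions were summed in each library. Ependymal cells line the ventricles, and 8 of 9 markers were found, with Rarres2 the most abundant. Their sum was highest in F2 IUO replicate 1 (194 FPKM) and F2 PNO replicate 4 (142), and was 121 in F1 IUO replicate 3, 71.3 in F1 SAL replicate 1, and 138 in F2 PNO replicate 1, a library with 10.6 FPKM of Ttr. With the mean log2 level of the 10 genes over 24 libraries, r was 0.54 for the sum, -0.14 for Rarres2 and from 0.40 (Ccdc153) to 0.72 (Cfap126) for the other 7 markers. In the 18 libraries low in Ttr it was -0.015 for the sum and from -0.08 to 0.26 for these 7. Without F1 PNO replicate 1 that of the sum was 0.24. Fibroblast markers of meninges and stroma (9 of 9, most abundant Col3a1) summed to 175 in F1 PNO replicate 3, 127 in F1 PNO replicate 1, 114 in F1 SAL replicate 1 and 57.4 in F2 IUO replicate 1. For their sum r was 0.56 over 24 libraries and 0.71 in the 18, or 0.58 there without F1 PNO replicate 1, and Col3a1 (0.76), Col1a1 (0.71) and Col1a2 (0.65) had the highest r of the 9 in the 18. Vascular markers (5 of 6, most abundant Esam) ran from 18.3 to 39.0, highest in F2 PNO replicate 4, and Cldn5 was listed at 0 in at least 12 libraries. For that sum r was 0.48 over 24 libraries and 0.52 in the 18. Plvap, highest at 13.7 in F2 PNO replicate 4, had r = 0.66 over 24 libraries and 0.24 in the 18, and Esam -0.15 and 0.15. Cldn5 had r = 0.016 over 24 libraries and 0.80 in the 18, the highest of the 5 there. The sums of the other lists had r from -0.46 (striatal neurons) to 0.29 (liver) over 24 libraries, and from -0.26 (blood) to 0.32 (thalamus) in the 18. For the hypothalamus sum r in the 18 was -0.04, and 0.34 without F1 PNO replicate 1. Liver also makes Ttr, and its 5 markers found of 6 summed to at most 3.66 in any library, with Apoa2, Serpina1 and Fgb listed at 0 in at least 12 libraries. Blood genes (3 of 5 names, most abundant Hba-a2) were highest in F1 PNO replicate 3 (471) and F1 IUO replicate 2 (410), which held 3742 and 22.8 FPKM of Ttr.

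NAc tissue was checked against 9 markers of striatal neurons, all found, with Ppp1r1b the most abundant. Their sum ran from 408 FPKM in F2 IUO replicate 1 to 1337 in F1 SAL replicate 3, so that the library with the most Ttr had the lowest striatal sum. The other libraries high in Ttr had striatal sums of 504 (F1 SAL replicate 1), 652 (F1 PNO replicate 3), 835 (F2 PNO replicate 4), 836 (F1 IUO replicate 4) and 849 (F1 IUO replicate 3), beside a median of 835 over all libraries. F2 IUO replicate 3, with 4.77 FPKM of Ttr, had 445. Thalamus markers (6 of 6, most abundant Tcf7l2) ran from 17.7 to 304, and hypothalamus markers (7 of 7, most abundant by mean Pomc) from 5.49 to 832. Pomc made up 818 of the 832, in F2 PNO replicate 4, and was at most 5.38 in the other 23 libraries, where the highest sum was 264. Their part in the levels of the choroid plexus genes was not tested.

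By the rule of the study, 0 ependymal, vascular and striatal genes were called in each of the 6 comparisons. The shares of all genes called were those given with each comparison, from 1.61% to 2.95%. Of the fibroblast list, Slc6a13, a GABA transporter, was 1 of 8 tested and was lower in F2 PNO than in F2 SAL (-1.51 ± 0.53, adjusted p by limma 0.400), against 2.15% of all genes. Of the blood list, Hba-a2 and Hbb, 2 of 3 tested, were called higher in F1 IUO than in F1 SAL (1.61% of all genes). This was the gene model of Hba-a2 with less FPKM, and the other model was not called there. Both gene models of Hba-a2, 2 of 3 tested, were called higher in F2 IUO (2.18%) and in F2 PNO (2.15%) than in F2 SAL. The F1 calls of Hba-a2 and Hbb were lost without F1 IUO replicate 2, and also without F1 IUO replicate 3 or F1 SAL replicate 1, 2 or 3. Both F2 PNO calls of Hba-a2 were lost without F2 PNO replicate 2, and that of the model with less FPKM also without F2 PNO replicate 3 or F2 SAL replicate 2, 3 or 4. Of the liver list, Apoa1, an apolipoprotein, was called lower in F2 IUO than in F2 SAL (1 of 2 tested, 2.18% of all genes) and in F2 PNO (1 of 3 tested, 1.80%). Its mean FPKM was low, at 0.125 in F2 IUO and 0.87 in F2 SAL. All genes of the hypothalamus list but Pomc, and Tcf7l2 of the thalamus list, were among the study's own hits from this RNA-seq. The counts of these 2 lists are therefore no separate support for a difference. Of the 7 hypothalamus genes tested, 4 were called higher in F1 IUO than in F1 SAL (Pmch, Hcrt, Oxt and Avp), against 1.61% of all genes. For F1 PNO against F1 SAL, 3 of the 7 were called lower (Otp, Oxt and Avp), against 1.86%. For F1 IUO against F1 PNO, 5 of the 7 were called higher, against 2.95%, and Avp, vasopressin, reached an adjusted p by limma of 0.0468 at 3.80 ± 0.54. In that comparison 23 of all genes had an adjusted p under 0.05, and 2 to 6 when any 1 library was left out. Of the same 7, Pmch was called higher in F2 PNO than in F2 SAL (2.15% of all genes), and Agrp higher in F2 IUO than in F2 PNO (1.80%). Of the thalamus list, 6 of 6 genes tested were called higher for F1 PNO against F1 SAL, against 1.86% of all genes, and 5 of 6 lower for F1 IUO against F1 PNO, against 2.95%, with Tcf7l2 at 2.02 ± 0.70 and -1.78 ± 0.54. Other calls of these lists were lost when 1 library was left out: Slc6a13, Pmch in each of its 3 comparisons, Oxt, Avp, Lef1, Slc17a6, Prkcd and Gbx2 for F1 PNO against F1 SAL, and Lhx9 for F1 IUO against F1 PNO. Apart from Avp, 0 genes of these lists had an adjusted p under 0.05.

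**Figure D3:**
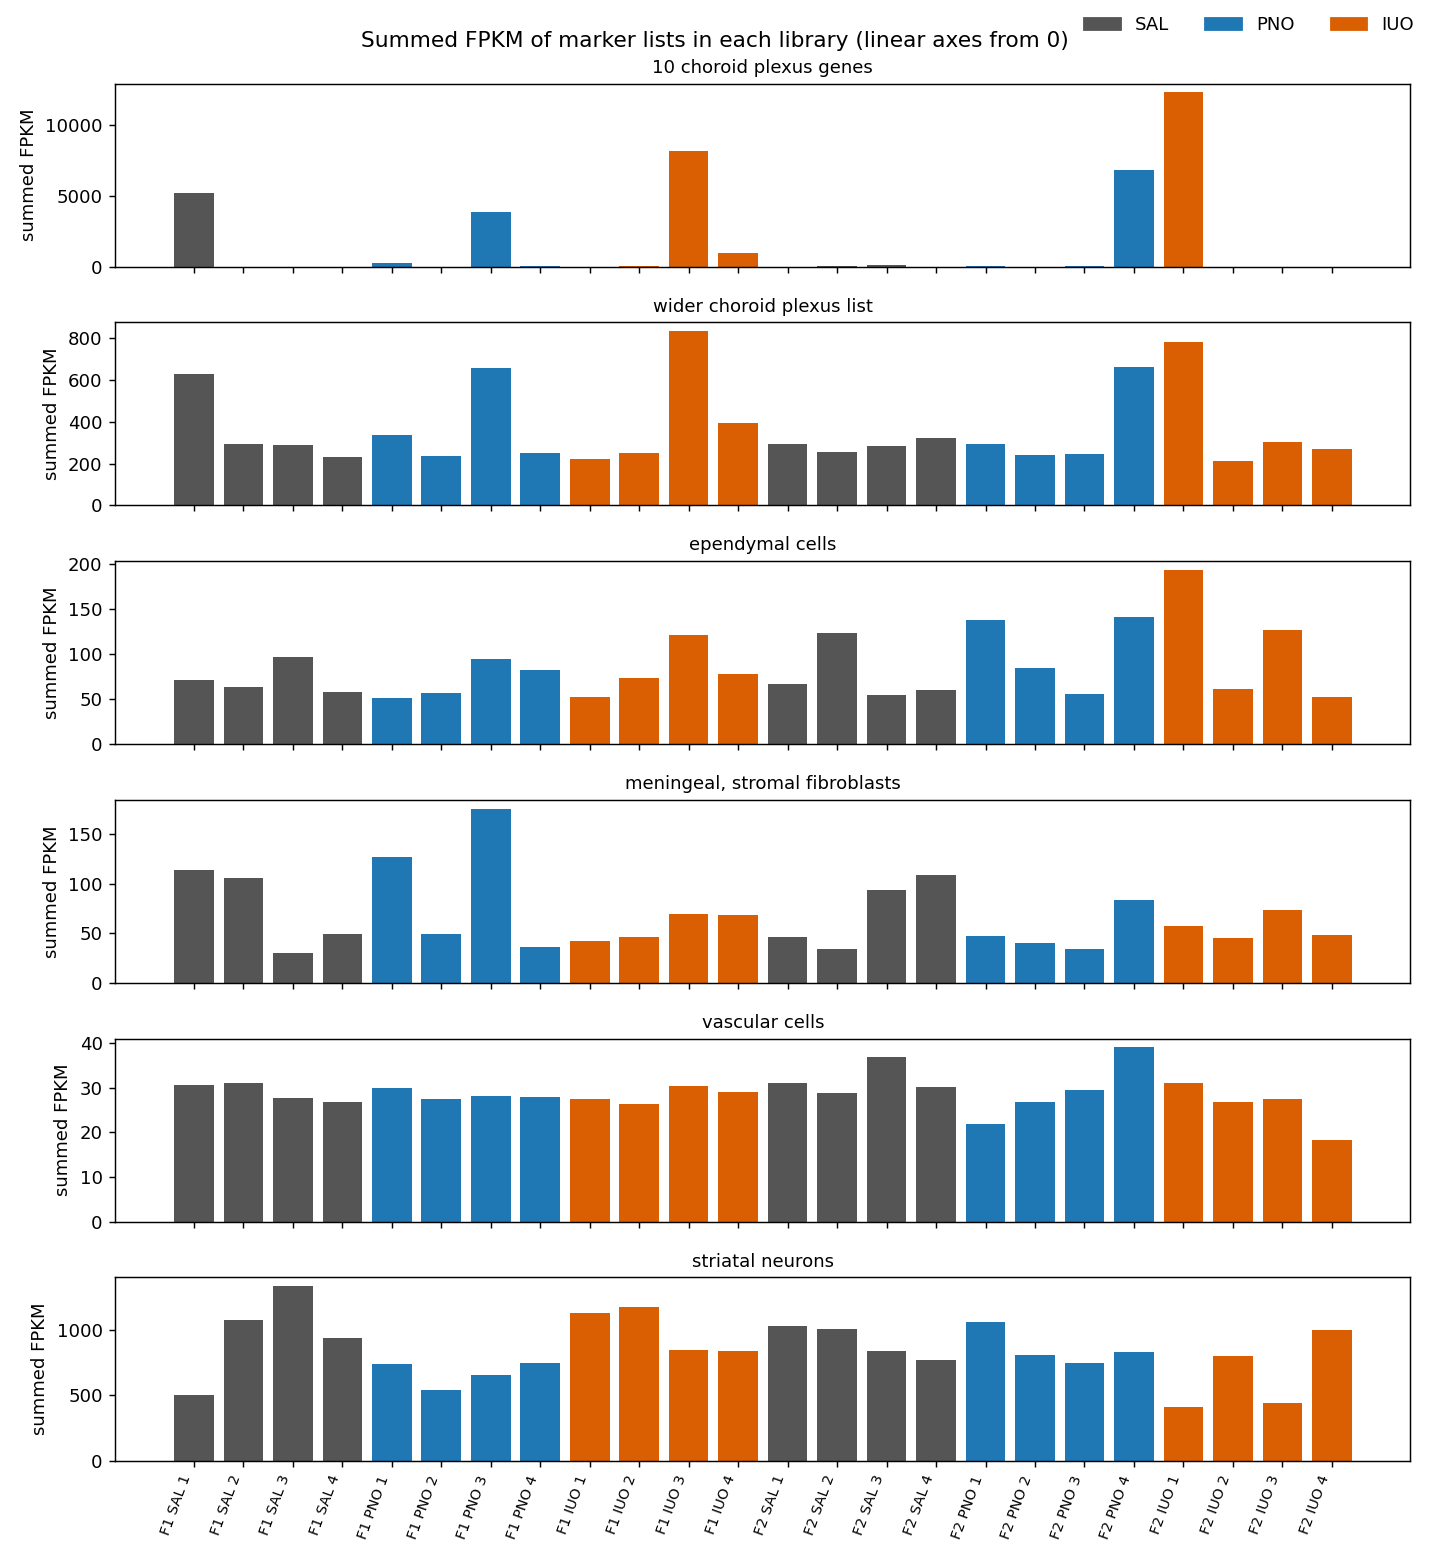
Summed FPKM in each of the 24 libraries for the 10 choroid plexus genes, the wider choroid plexus list and 4 lists of other cells, on linear axes from 0 (grey, SAL; blue, PNO; orange, IUO). The first 2 panels share their highest libraries, and the striatal sum is lowest in F2 IUO replicate 1, at 408.

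Promoter sequences are a property of the genes apart from their levels. All 10 genes matched the RefSeq gene table (assembly GRCr8) by symbol, and 5 had a promoter window of 250 bases before to 50 after the gene start: Ttr, Kl, Kcnj13, Aqp1 and Trpv4. The letters TAATCC, a core bound by Otx2-type homeodomains, were searched on both strands and were in 0 of the 5 windows, against 7.17% of 33469 windows. TATAAA, searched on the strand of the gene, was in the windows of Kcnj13 and Aqp1, against 8.80% of all windows. It began 46 bases before the start of Kcnj13 and 30 bases before that of Aqp1. A match is a description of letters in a window and no site. The 250 bases before the start of these genes are shown from RefSeq, build GRCr8, as the pair that holds TATAAA, which is in capitals.
Kcnj13, chr9:95518987-95519236, minus strand: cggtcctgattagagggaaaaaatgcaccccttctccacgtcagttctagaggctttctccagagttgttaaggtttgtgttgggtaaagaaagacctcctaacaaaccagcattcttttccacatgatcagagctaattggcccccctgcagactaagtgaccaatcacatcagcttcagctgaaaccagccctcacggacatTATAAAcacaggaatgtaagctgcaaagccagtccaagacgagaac
Aqp1, chr4:85812534-85812783, plus strand: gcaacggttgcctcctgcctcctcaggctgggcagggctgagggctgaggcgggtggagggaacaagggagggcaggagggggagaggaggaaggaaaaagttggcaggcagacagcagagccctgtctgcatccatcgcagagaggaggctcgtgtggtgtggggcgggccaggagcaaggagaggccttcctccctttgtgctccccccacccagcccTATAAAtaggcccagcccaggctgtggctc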

How the data were processed

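The authors deposited FPKM values per gene for each of 24 NAc libraries of rat pups; the submitters' processing notes name HISAT2, StringTie, SAMtools and edgeR, with the genome build and versions not given in the sources used here. The deposited FPKM were used unchanged. Samples were grouped by their titles. Because the files hold FPKM, limma (version 3.58.1, R 4.3.3) was fitted across all genes to log2(FPKM + 0.1), with an empirical Bayes trend, to genes of at least 0.1 FPKM in at least 4 libraries. The test the study names, edgeR, was not used here, since it takes counts. P-values were adjusted by Benjamini-Hochberg over all genes tested. Named genes were the 10 members, genes of fixed lists past the rule of the study, and the 15 genes most like the members. Alternatives were another pseudocount, filters, rescaling, 1 fit of all libraries, the replicate number as a block, 1.5-fold and leaving out each library. Fits without the libraries over 3000 or over 500 FPKM of Ttr were added after seeing the data. The members and lists were chosen with earlier results of these data known. Read depth is unknown, so no counting interval is given. Python 3.11.15 was used for the summaries.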

Additional observations from a re-analysis of the deposited data

Results flagged for a closer look

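In 45 of 60 sets of 4 libraries (10 genes in 6 groups), 1 library lay far from the other 3, by the gap to its nearest neighbour as a share of the whole range of FPKM. In all 45 the library was the highest. Chance gives about 1 in 20 such sets for normally distributed values, which FPKM are not, and the 10 genes share their libraries, so that the 45 are not separate observations. On log2(FPKM + 0.1), a scale added after seeing the data, 12 of the 60 sets passed the same limit, of which 3 were of Ttr (F1 SAL, F2 IUO and F2 PNO), and again the library was the highest in each.

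In F1 IUO replicate 3 the gap made up 0.879 for Ttr, 0.888 for Kl, 0.864 for Folr1, 0.837 for Clic6, 0.848 for Sostdc1, 0.924 for Kcnj13, 0.847 for Otx2, 0.896 for Aqp1 and 0.885 for Trpv4 of the range. In F1 PNO replicate 3 the gap made up 0.937 for Ttr, 0.918 for Kl, 0.932 for Folr1, 0.908 for Clic6, 0.882 for Sostdc1, 0.836 for Aqp1 and 0.928 for Trpv4 of the range. In F1 SAL replicate 1 the gap made up 0.9997 for Ttr, 0.971 for Kl, 0.885 for Folr1, 0.975 for Clic6, 0.995 for Sostdc1, 0.914 for Kcne2, 0.910 for Kcnj13, 0.914 for Aqp1 and 0.949 for Trpv4 of the range. In F2 IUO replicate 1 the gap made up 0.9997 for Ttr, 0.980 for Kl, 0.959 for Folr1, 0.964 for Clic6, 0.985 for Sostdc1, 0.987 for Kcne2, 0.985 for Kcnj13, 0.990 for Aqp1 and 0.997 for Trpv4 of the range. In F2 PNO replicate 4 the gap made up 0.998 for Ttr, 0.989 for Kl, 0.954 for Folr1, 0.984 for Clic6, 0.997 for Sostdc1, 0.930 for Kcne2, 0.955 for Kcnj13, 0.935 for Otx2, 0.988 for Aqp1 and 0.928 for Trpv4 of the range. In F2 SAL replicate 3 the gap made up 0.919 for Ttr of the range.

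What set these libraries apart was not tested.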

How the results depend on the processing

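The count of called genes stayed at 0 of 10 in all 6 comparisons and all 3 tests of the generation difference with pseudocount 1, without a filter, at 1 FPKM or more (where fewer of the 10 were tested), after upper-quartile rescaling, in 1 fit of all 24 libraries, and with 1.5-fold where it applied. With the replicate block it was also 0 in each, and Ttr for IUO against SAL in F1 was 3.54 (p by limma 0.319 in place of 0.253). Same-numbered libraries had correlated deviations from -0.269 to 0.121 and did not each match their own number best, so the number does not pair them. The block left 2 genes of all at adjusted p under 0.05 for IUO against PNO in F1, in place of 23.

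Leaving out 1 library at a time gave 0 to 1 called genes for IUO against SAL and PNO against SAL in F1 and PNO against SAL in F2, and 0 elsewhere. Where 1 of 10 was called, so were 1.39% (Ttr) and 2.28% (Otx2), 2.83% and 3.01% of all genes. Without the libraries over 3000 FPKM of Ttr, a limit chosen after seeing the data, 1 gene was called in each of IUO against SAL and PNO against SAL in F1, and PNO against SAL and IUO against PNO in F2; over 500 FPKM the counts were 2, 1, 1 and 1. The shares of all genes called were 1.58%, 2.92%, 3.01% and 1.87% over 3000 FPKM, and 1.74% in place of 1.58% over 500. These libraries were left out by the value of a member, so the counts are a description, and no adjusted p was under 0.05.

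Values changed sign when 1 library was left out, and of the changed values Aqp1 for PNO against SAL in F2 passed the rule of the study. The log2 fold change of Ttr for IUO against PNO in F1 ran from -1.04 to 2.49 (-0.0276, -0.4138 and -0.1450 without F1 IUO replicate 4, F1 PNO replicate 2 and F1 PNO replicate 4), for IUO against SAL in F2 from -1.03 to 2.93, and for IUO against PNO in F2 from -3.66 to 1.43 (0.1009 and 0.2953 without F2 IUO replicate 3 and 4). That of Aqp1 ran from -0.62 to 1.64 for PNO against SAL in F1 (-0.3433 and -0.3818 without F1 SAL replicate 3 and 4), from -0.0478 to 2.03 for IUO against PNO in F1, from -0.31 to 1.34 and from -1.28 to 0.65 (-0.3403 without F2 SAL replicate 2) for IUO and PNO against SAL in F2, and from -0.40 to 2.15 for IUO against PNO in F2. The median over the 10 genes changed sign in all 6 comparisons when 1 library was left out (-0.38 to 1.66, -0.93 to 1.34 and -0.62 to 1.54 in F1; -0.60 to 1.25, -0.38 to 1.39 and -1.64 to 1.04 in F2, for IUO against SAL, PNO against SAL and IUO against PNO). With pseudocount 1 the within-group ranges narrowed beyond their spread in 22 of 60 sets, and Aqp1 was -0.0021 for PNO against SAL in F1. A larger pseudocount narrows a log2 range by arithmetic, most where the lowest FPKM is small. What lay behind the changes of sign when 1 library was left out was not tested. Counts of all genes by the rule of the study moved with the filter and the fold. For IUO against SAL, PNO against SAL and IUO against PNO in F1, then in F2, at 1 FPKM they were 83, 112, 237, 136, 151 and 119 in place of 279, 325, 510, 373, 373 and 308, and at 1.5-fold 426, 784, 1225, 716, 789 and 577. Without a filter they were 465, 569 and 521 for IUO against SAL in F1 and F2 and IUO against PNO in F2, without F2 IUO replicate 3 586 for IUO against SAL in F2, and without the libraries high in Ttr 494 for PNO against SAL in F1. The adjusted p count of 23 for IUO against PNO in F1 was between 0 and 39, and that of 1 for PNO against SAL in F2 between 0 and 6. Unknown depth limits low values.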

Other observations

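Pituitary hormone genes, chosen after their values were seen, were high in 1 library, F2 PNO replicate 4, which is also 1 of those high in Ttr. Gh1, growth hormone, was 4682 FPKM there and at most 4.79 in the other 23 libraries. Cga, the shared subunit of glycoprotein hormones, was 633 against at most 0.41, and Tshb, the thyrotropin subunit, 387 against at most 1.40. Pomc, the precursor of corticotropin, was 818 against at most 5.38, Prl, prolactin, 150 against at most 0.61, and Lhb, the lutropin subunit, 66.0 against at most 6.34. In 5 of these 6 genes the highest of the other 23 libraries was F2 IUO replicate 1, the library with the most Ttr.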
